A study of Mus musculus with 6 samples.

Results

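The 35 genes described here encode ligands and receptors of the tumour necrosis factor (TNF) superfamilies: 20 receptors and 15 ligands. They were chosen by name from a list of superfamily symbols, with earlier results of these data known. Each symbol matched 1 Ensembl identifier among the 39179 in every count file. Their RNA was counted in 6 sequencing libraries, made from polyA-selected RNA of mouse T cells that were cultured so as to become regulatory T cells (Tregs). The starting cells were naive CD4+ T cells, isolated from the spleen of C57BL/6 wild-type animals at 6 weeks of age. Both groups were held for 3 days in medium with plate-bound anti-CD3 (2, with the first letter of its unit garbled in the labels, per ml), anti-CD28 (1 µg/ml), TGF-β1 (5 ng/ml) and IL-2 (40 ng/ml). The Fc group (3 libraries) also received an antibody Fc part as control, and the DEL-1-Fc group (3 libraries) received DEL-1, a secreted integrin-binding protein, fused to Fc. Both groups therefore share T cell receptor stimulation, CD28 stimulation, TGF-β1 and IL-2, and no unstimulated or Treg-free culture is among the samples. The labels do not say whether replicates are separate mice or cultures, so each p-value is set against the spread of these libraries alone, and that spread may be technical.

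TNF superfamily ligands are mostly membrane proteins that act as trimers on neighbouring cells, and several are also cut off and act in solution. Their receptors either recruit TRAF adaptors, which lead to NF-κB and to T cell survival and costimulation, or carry a death domain that can start caspases. In Tregs the receptors OX40 (Tnfrsf4), GITR (Tnfrsf18), CD137 (Tnfrsf9), TNFR2 (Tnfrsf1b) and DR3 (Tnfrsf25) are known for costimulation and expansion of the cells. Lymphotoxins made by T cells act on stromal and myeloid cells in the building of lymphoid tissue.

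The libraries held 33364166 to 61967687 counts, and DEL-1-Fc replicate 1 was the shallowest. That library also stood apart from DEL-1-Fc replicates 2 and 3 on the first 2 principal components of log CPM (CPM being the count relative to the TMM-scaled library total). On the first, the axis between Fc and DEL-1-Fc with 44.02% of the variance, it scored 47.7 against 14.3 and 12.8 for those replicates and -27.5 to -22.7 for Fc. On the second, with 23.3% of the variance, it scored 27.9 against -28.7 and -23.6, with Fc at 4.38 to 11.5. Values without it are therefore given where they change the call of a superfamily member. The calls of markers and of genes outside the member list were not followed through the fits with a library left out. The 7 listed T cell markers summed to 2679 to 2801 CPM in Fc and 2699.8 to 2965 CPM in DEL-1-Fc, and 1 of them, Cd28, was called higher (log2 fold change 0.23, edgeR adjusted p = 0.0385). Of 5 Treg markers, 1 rose and 1 fell. The Treg-defining factor Foxp3 rose (359.5 ± 50.1 CPM in Fc against 523 ± 59.7 CPM with DEL-1-Fc; SD, n = 3 each; edgeR adjusted p = 0.0166), the inhibitory receptor gene Ctla4 fell (524 ± 13.7 CPM in Fc against 425 ± 35.03 CPM with DEL-1-Fc; adjusted p = 0.031), and Il2ra, Ikzf2 and Ikzf4 did not pass (log2 fold changes 0.05, -0.10 and -0.06). Of the markers of other cells, the 7 B cell genes summed to 6.23 to 7.68 CPM in the Fc libraries and 6.9997 to 8.78 CPM in the DEL-1-Fc libraries, with 0 of 7 called by edgeR or DESeq2 and 1 at an unadjusted p under 0.05. The 7 macrophage and monocyte genes summed to between 0.419 and 0.734 CPM in every library and the 5 NK cell genes to at most 0.792 CPM, with Ncr1 at 0 counts throughout. The 6 dendritic cell genes summed to 8.91 to 9.02 CPM in Fc and 6.51 to 7.06 CPM in DEL-1-Fc, nearly all of it Zbtb46, which fell (8.71 ± 0.16 CPM in Fc against 6.52 ± 0.21 CPM with DEL-1-Fc; edgeR adjusted p = 0.0192), while Clec9a and Siglech had 0 counts. Of the 2 CD8 T cell genes Cd8a rose (2.37 ± 0.133 CPM in Fc against 4.06 ± 0.447 CPM with DEL-1-Fc; edgeR adjusted p = 0.00607) and Cd8b1 did not pass (log2 fold change 0.04). Of the 5 stromal and endothelial genes Pecam1 rose (62.3 ± 5.37 CPM in Fc against 79.9 ± 5.91 CPM with DEL-1-Fc; edgeR adjusted p = 0.0237), with Col3a1 and Dcn at 0 counts. Col1a1 and Pdgfrb were scarce (0.345 ± 0.0795 and 0.271 ± 0.0524 CPM in Fc) and did not pass (log2 fold changes -0.08 and -0.30). The counts of this list were thus nearly all Pecam1. The part of the cells these markers stand for in the results was not tested. In bulk RNA of this kind, fewer cells of a type and less RNA per cell cannot be told apart.

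Of the 35 genes, 32 passed the low-count filter, 5 rose in DEL-1-Fc and 7 fell, and 20 did not pass the test. The test was edgeR's quasi-likelihood test, with p-values adjusted by Benjamini and Hochberg's method across all 14928 genes kept, and genes were called at an adjusted p under 0.05. Across all genes kept, 12.6% were called, 6.4% as higher and 6.22% as lower, against 37.5% of the 32 tested members. The members were chosen with earlier results of these data known, so how far this contrast comes from that choice cannot be told. Of the superfamily genes outside the list, 5 were tested and 0 were called by edgeR or DESeq2, with 1 at an unadjusted edgeR p under 0.05. Among the 20 receptors, all of which were tested, Cd27, Tnfrsf25 and Tnfrsf26 rose and Tnfrsf9, Tnfrsf10b and Tnfrsf13c fell. Among the 12 ligands tested, Ltb and Tnfsf14 rose and Tnfsf4, Tnfsf8, Fasl and Cd40lg fell. The tested members had a median log2 fold change of -0.07 and a median absolute log2 fold change of 0.29, where all genes had 0.01 and 0.16. In 18 of the 32 the libraries of one group lay wholly beyond those of the other, 7 with DEL-1-Fc higher and 11 with it lower, and such separation held for 34.8% of all genes kept. The 12 called members were all among these 18.

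Levels can be compared between genes only per length, and for that CPM was divided by exon length in kilobases (RPKM). In Fc the highest receptor was Tnfrsf4 (OX40) at 686 ± 12.3 RPKM (SD, n = 3), followed by Tnfrsf18 (GITR) at 249 ± 13.1 and Tnfrsf9 (CD137) at 230.1 ± 11.3 RPKM. The last of these overlapped Tnfrsf18 across the Fc libraries, so their order is not settled. Next came Tnfrsf1b at 46.3 ± 0.577 and Cd27 at 37.3 ± 1.47 RPKM, and these exchanged places in DEL-1-Fc. At the low end stood Ltbr at 0.114 ± 0.0376 and Tnfrsf23 at 0.112 ± 0.043 RPKM. Lta was the highest ligand at 561 ± 43.6 RPKM, ahead of Ltb at 159.8 ± 11.1, Tnf at 122 ± 7.59, Tnfsf11 at 80.5 ± 6.3 and Cd40lg at 67.9 ± 4.13 RPKM. The costimulatory ligands Tnfsf9, Tnfsf4 and Cd70 were lower, at 13.98 ± 0.967, 7.51 ± 0.565 and 1.8 ± 0.192 RPKM. The first 5 ligands kept their order in DEL-1-Fc. By group means Tnfsf14 went from rank 10 to rank 7 and Fasl from rank 8 to rank 10, but these moves are not settled. In DEL-1-Fc Tnfsf14 stood at 21.7 ± 5.26 RPKM beside Tnfsf10 at 21.9 ± 2.69 RPKM. Fasl stood there at 12.7 ± 0.328 RPKM beside Tnfsf9 at 13.7 ± 0.949 and Tnfsf8 at 13.9 ± 1.76 RPKM. Tnfsf10 and Fasl also overlapped across the Fc libraries.

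**Figure D1:**
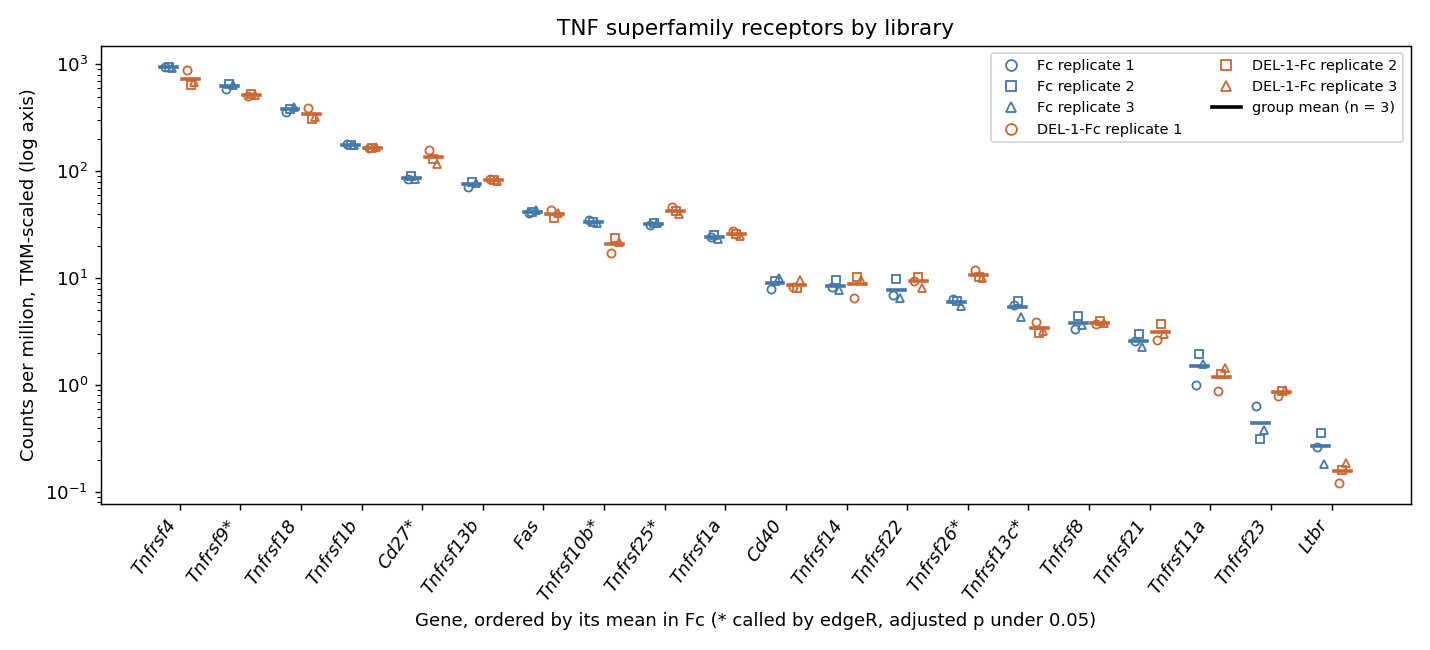
CPM of the 20 TNF superfamily receptors (log axis) in each library, ordered by the Fc mean; symbols are single libraries (n = 3 a group), bars are group means and an asterisk marks genes called by edgeR. Cd27, Tnfrsf25 and Tnfrsf26 lie above their Fc libraries and Tnfrsf9, Tnfrsf10b and Tnfrsf13c below, and DEL-1-Fc replicate 1 lies nearer to Fc than replicates 2 and 3 do for Tnfrsf4.

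Ltb, the membrane-anchoring chain of the lymphotoxin heterotrimer, rose 1.63-fold in DEL-1-Fc, whereas Tnf and Lta, its neighbours in the class III region of the MHC, did not pass the test. Ltb measured 223, 252 and 252 CPM in the Fc libraries and 467, 360.0 and 358 CPM in the DEL-1-Fc libraries (log2 fold change 0.71, SE 0.11, edgeR adjusted p = 0.00377). All 3 DEL-1-Fc libraries lay above all 3 Fc libraries, with replicate 1 highest. Lta, which encodes the soluble lymphotoxin chain and the partner of Ltb, measured 839, 770.1 and 718 CPM in the Fc libraries and 768, 735 and 716 CPM in the DEL-1-Fc libraries, and the groups overlapped (log2 fold change -0.07, 95% interval -0.24 to 0.10, edgeR adjusted p = 0.605). Tnf, the founding cytokine of the family, measured 212, 199 and 187 CPM in the Fc libraries and 181, 183 and 179 CPM in the DEL-1-Fc libraries. Its DEL-1-Fc libraries all lay below the Fc libraries, by a margin that did not pass (log2 fold change -0.14, 95% interval -0.29 to 0.00, edgeR adjusted p = 0.195). Tnfsf14, which encodes LIGHT, a ligand of the lymphotoxin β receptor and of HVEM, rose 1.8-fold and measured 22.97, 22.1 and 21.6 CPM in the Fc libraries and 51.3, 34.6 and 34.5 CPM in the DEL-1-Fc libraries (log2 fold change 0.85, SE 0.149, edgeR adjusted p = 0.00781). As with Ltb, replicate 1 was the highest DEL-1-Fc library, and without it the log2 fold changes were 0.57 for Ltb and 0.64 for Tnfsf14, both still called (edgeR adjusted p = 0.000155 and 4.9e-05). Whether the change in Ltb differs from that in Lta or Tnf was not tested.

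The bases just before the transcription starts of these 4 ligand genes are shown because Ltb and Tnfsf14 rose while Tnf and Lta did not pass. Tnf and Lta are close neighbours of Ltb but not of Tnfsf14. They come from RefSeq (GRCm38.p6), run 5′ to 3′ on the gene's own strand and end where either RefSeq or GENCODE starts the transcript. Capitals mark matches on either strand to the κB consensus (the letters bound by NF-κB), to TGTGGT (the core bound by Runx factors) or to TGANTCA (bound by AP-1). The Ltb window spans chr17:35194257-35194438, plus strand, that of Tnf chr17:35202008-35202257, minus strand, that of Lta chr17:35205352-35205601, minus strand and that of Tnfsf14 chr17:57194182-57194431, minus strand.
Ltb: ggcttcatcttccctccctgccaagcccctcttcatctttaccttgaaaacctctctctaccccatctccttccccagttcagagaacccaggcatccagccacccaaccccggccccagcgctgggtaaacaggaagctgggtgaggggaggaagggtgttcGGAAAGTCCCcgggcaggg
Tnf: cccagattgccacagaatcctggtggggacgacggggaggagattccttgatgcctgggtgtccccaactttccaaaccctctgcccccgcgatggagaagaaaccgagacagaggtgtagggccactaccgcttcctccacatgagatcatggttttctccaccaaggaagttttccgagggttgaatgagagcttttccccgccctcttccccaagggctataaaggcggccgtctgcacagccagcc
Lta: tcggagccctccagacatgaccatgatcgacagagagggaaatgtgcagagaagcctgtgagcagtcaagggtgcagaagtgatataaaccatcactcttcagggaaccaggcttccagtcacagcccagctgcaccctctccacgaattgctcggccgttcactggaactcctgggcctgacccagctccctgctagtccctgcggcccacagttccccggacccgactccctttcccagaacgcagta
Tnfsf14: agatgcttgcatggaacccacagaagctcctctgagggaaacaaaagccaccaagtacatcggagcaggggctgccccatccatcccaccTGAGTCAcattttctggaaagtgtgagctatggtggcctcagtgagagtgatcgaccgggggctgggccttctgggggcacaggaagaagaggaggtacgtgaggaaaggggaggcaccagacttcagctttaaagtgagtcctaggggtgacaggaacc
The match in Ltb is GGAAAGTCCC, the κB consensus on the reverse strand, at 87 to 78 bases before the RefSeq start. The match in Tnfsf14 is TGAGTCA, at 160 to 154 bases before the start. The windows of Tnf and Lta hold none of the 3 motifs, which says only that these letters are not in these 250 bases. Over the 32851 promoter entries of the table, the same 250-base window held the κB consensus in 3.9%, TGTGGT in 14.0% and TGANTCA in 6.75%. The windows of 26 members were in the table, and 3 of them held the κB consensus, 3 TGTGGT and 6 TGANTCA. A member was counted if any of its windows matched, whereas the shares above are of single windows. The other κB matches were in Tnfrsf8 and in Tnfrsf9, where GGGGATTTCC and GGGATTTCCC overlap by all but 1 base at 43 to 33 bases before the second of the RefSeq starts, with TGAGTCA at 15 to 9 bases.

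**Figure D2:**
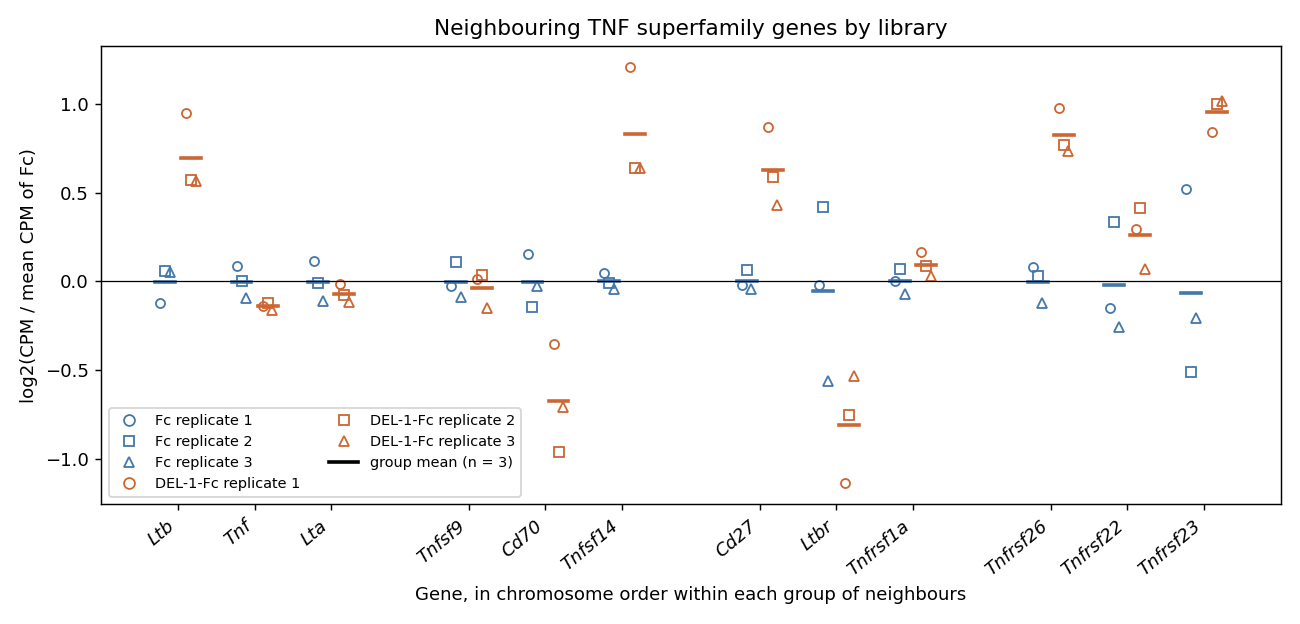
log2 of CPM over the Fc mean for superfamily genes that lie within 100000 bases of each other, in the 4 neighbour groups that hold a called gene; symbols are libraries and bars group means (n = 3). The called genes Ltb, Tnfsf14, Cd27 and Tnfrsf26 lie above 0 in all DEL-1-Fc libraries, while Tnf and Lta beside Ltb lie at or just below 0. Tnfrsf1a, Tnfrsf22 and Tnfrsf23, which were not called, also lie above 0 in all DEL-1-Fc libraries.

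Of the ligands that costimulate lymphocytes, Tnfsf4, Tnfsf8 and Cd40lg fell in DEL-1-Fc, together with the death ligand Fasl. Cd70 and Tnfsf9 did not pass, and Tnfsf14, a ligand of HVEM, rose. Tnfsf4, which encodes the OX40 ligand, fell 1.76-fold and measured 13.3, 13.1 and 15.03 CPM in the Fc libraries and 7.68, 8.01 and 7.83 CPM in the DEL-1-Fc libraries (log2 fold change -0.82, SE 0.0924, edgeR adjusted p = 0.000696). This was the smallest adjusted p among the 32 tested members, and the nearest libraries of the groups stood well apart. Tnfsf8, which encodes CD30 ligand, fell 1.46-fold and measured 75.2, 80.7 and 76.00 CPM in the Fc libraries and 47.1, 60.2 and 50.9 CPM in the DEL-1-Fc libraries (log2 fold change -0.55, SE 0.0911, edgeR adjusted p = 0.00499). Fasl, which triggers death through Fas, fell 1.39-fold and measured 36.5, 33.9 and 32.1 CPM in the Fc libraries and 24.5, 25.3 and 24.00 CPM in the DEL-1-Fc libraries (log2 fold change -0.47, SE 0.0709, edgeR adjusted p = 0.00297). The DEL-1-Fc libraries of Fasl lay close together and below every Fc library. Cd40lg, the T cell help signal for B cells and dendritic cells, fell 1.23-fold and measured 90.03, 84.9 and 79.7 CPM in the Fc libraries and 62.6, 75.9 and 68.4 CPM in the DEL-1-Fc libraries (log2 fold change -0.30, SE 0.0828, edgeR adjusted p = 0.0474). That call did not survive the omission of any single Fc library (adjusted p = 0.2, 0.152 and 0.0859 for replicates 1, 2 and 3) or of DEL-1-Fc replicate 3 (0.126), nor the use of library sizes alone (0.0916), a stricter filter of 5 CPM in 3 libraries (0.0554) or the replicate block (0.078). Cd70, the ligand of CD27, was scarce and measured 1.69, 1.37 and 1.49 CPM in the Fc libraries and 1.19, 0.778 and 0.928 CPM in the DEL-1-Fc libraries. Its DEL-1-Fc libraries lay below the Fc libraries without passing (log2 fold change -0.67, 95% interval -1.12 to -0.22, edgeR adjusted p = 0.0598), and it was called without DEL-1-Fc replicate 1 (log2 fold change -0.83, adjusted p = 0.0124).

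The remaining ligands did not pass or were too scarce to test. Tnfsf11, the RANK ligand known from bone and lymph node formation, measured 194, 166 and 179.5 CPM in the Fc libraries and 191, 154 and 173 CPM in the DEL-1-Fc libraries (log2 fold change -0.06, 95% interval -0.27 to 0.14, edgeR adjusted p = 0.709). Tnfsf9, the CD137 ligand, measured 17.7, 19.4 and 16.99 CPM in the Fc libraries and 18.2, 18.5 and 16.2 CPM in the DEL-1-Fc libraries (log2 fold change -0.03, 95% interval -0.23 to 0.16, edgeR adjusted p = 0.842). The libraries of both genes overlapped between groups. Tnfsf9 shares 14.9% of its exon bases with the non-coding gene Gm11110 on the other strand, so part of its reads is uncertain. Tnfsf10, which encodes the death ligand TRAIL, measured 91.8, 105 and 106 CPM in the Fc libraries and 100.1, 128 and 118 CPM in the DEL-1-Fc libraries (log2 fold change 0.19, 95% interval -0.03 to 0.41, edgeR adjusted p = 0.245), and was called higher only in the fit without DEL-1-Fc replicate 1 (log2 fold change 0.28, adjusted p = 0.0181) among the 12 alternatives. The B cell survival ligands Tnfsf13 (APRIL) and Tnfsf13b (BAFF) and the ligand Tnfsf12 (TWEAK) were near the detection limit. Tnfsf13b had 3, 13 and 3 counts in Fc and 3, 5 and 9 counts in DEL-1-Fc, Tnfsf12 had 2, 3 and 2 counts in Fc and 3, 0 and 0 counts in DEL-1-Fc and Tnfsf13 had 0, 5 and 1 counts in Fc and 0, 1 and 0 counts in DEL-1-Fc. A count of 0 allows up to 3 counts, or 0.0490 to 0.0914 CPM in these libraries. Tnfsf12 and Tnfsf13 share 48.3% and 60.0% of their exon bases with the annotated fusion gene Tnfsfm13, which had 0 counts in every library, and how reads from the shared part were assigned is not given.

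**Figure D3:**
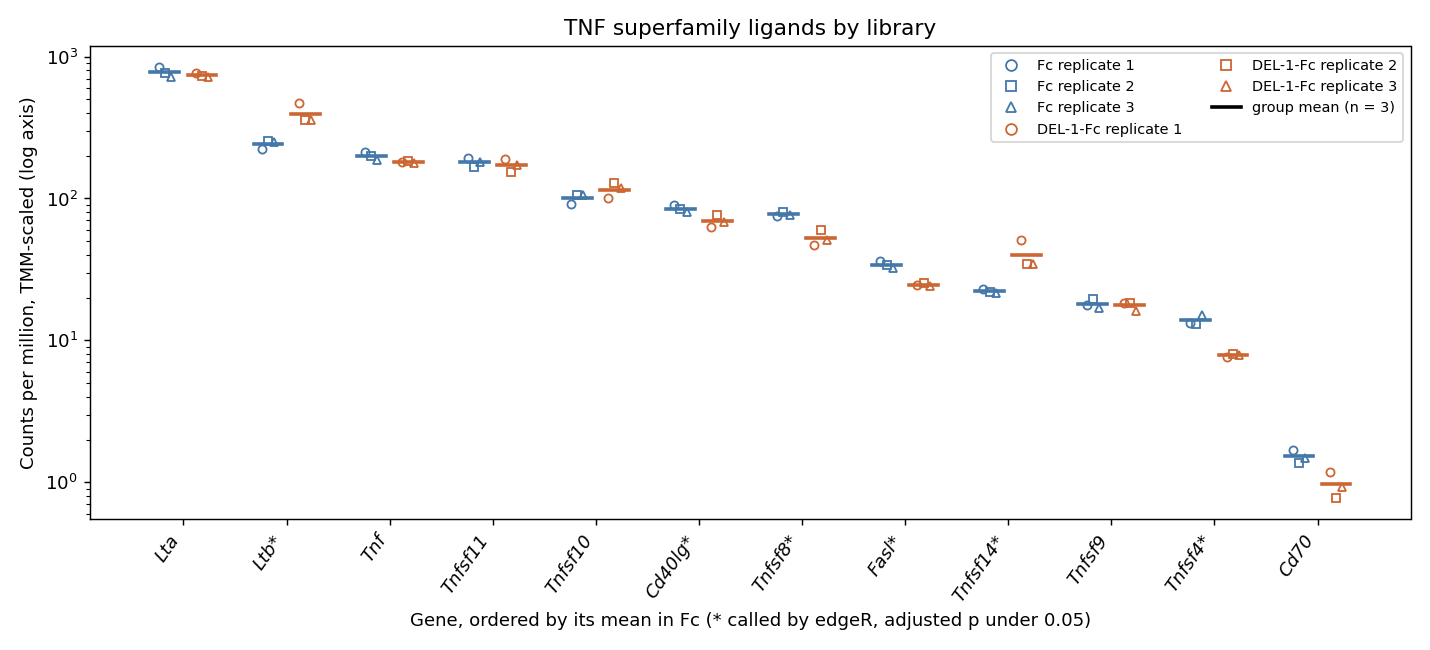
CPM of the 12 tested TNF superfamily ligands (log axis) in each library, ordered by the Fc mean; symbols are single libraries (n = 3 a group), bars are group means and an asterisk marks genes called by edgeR. Ltb and Tnfsf14 lie above their Fc libraries, Tnfsf4, Tnfsf8, Fasl and Cd40lg lie below, and Lta is the highest in both groups.

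Among receptors that costimulate T cells, Cd27 and Tnfrsf25 rose while Tnfrsf9 fell. Cd27, a costimulatory receptor of naive and memory T cells, rose 1.56-fold and measured 85.6, 90.7 and 84.1 CPM in the Fc libraries and 158, 130.5 and 117 CPM in the DEL-1-Fc libraries (log2 fold change 0.64, SE 0.103, edgeR adjusted p = 0.00441). Tnfrsf25, the death domain receptor DR3 known for expanding Tregs, rose 1.33-fold and measured 31.6, 32.8 and 32.5 CPM in the Fc libraries and 46.5, 42.5 and 39.6 CPM in the DEL-1-Fc libraries (log2 fold change 0.41, SE 0.0735, edgeR adjusted p = 0.00767). With Fc replicate 1 left out, Tnfrsf25 no longer passed (adjusted p = 0.0527). Tnfrsf9, the activation-induced receptor CD137, fell 1.21-fold and measured 592, 651 and 636 CPM in the Fc libraries and 501, 526 and 523 CPM in the DEL-1-Fc libraries (log2 fold change -0.28, SE 0.0668, edgeR adjusted p = 0.0272). Its groups did not overlap, but it failed the test when any single Fc library was omitted (adjusted p = 0.0627, 0.146 and 0.125 for replicates 1, 2 and 3) and when DEL-1-Fc replicate 3 was (0.066).

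The neighbouring receptor genes Tnfrsf4 (OX40) and Tnfrsf18 (GITR), both typical of Tregs, were called or not depending on DEL-1-Fc replicate 1. Tnfrsf4 measured 939.6, 951 and 918 CPM in the Fc libraries and 877, 644 and 689 CPM in the DEL-1-Fc libraries and did not pass (log2 fold change -0.35, 95% interval -0.60 to -0.10, edgeR adjusted p = 0.0775). Tnfrsf18 measured 359.8, 380.5 and 399.8 CPM in the Fc libraries and 394, 306 and 322 CPM in the DEL-1-Fc libraries and did not pass either (log2 fold change -0.16, 95% interval -0.38 to 0.07, edgeR adjusted p = 0.343). In both genes replicate 1 was the highest DEL-1-Fc library, inside the Fc range for Tnfrsf18 and just below it for Tnfrsf4. Without that library both were called lower, Tnfrsf4 at a log2 fold change of -0.49 (edgeR adjusted p = 0.000223) and Tnfrsf18 at -0.28 (adjusted p = 0.008). Tnfrsf4 was also called by DESeq2 (adjusted p = 0.0178) and with no low-count filter (adjusted p = 0.0395). Tnfrsf18 shares 27.2% of its exon bases with the antisense gene Gm16008, so part of its reads is uncertain. Tnfrsf8, which encodes CD30, measured 3.35, 4.42 and 3.68 CPM in the Fc libraries and 3.75, 4.02 and 3.78 CPM in the DEL-1-Fc libraries and overlapped (log2 fold change 0.01, 95% interval -0.30 to 0.32, edgeR adjusted p = 0.969). Tnfrsf14, which encodes HVEM, the shared receptor of LIGHT and the inhibitory BTLA, measured 8.23, 9.53 and 7.81 CPM in the Fc libraries and 6.52, 10.3 and 9.55 CPM in the DEL-1-Fc libraries (log2 fold change 0.05, 95% interval -0.33 to 0.43, edgeR adjusted p = 0.895). These intervals leave room for changes of either sign in Tnfrsf8 and Tnfrsf14.

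Of the TRAIL receptors, Tnfrsf10b fell and the decoys Tnfrsf22 and Tnfrsf23 did not pass, while Tnfrsf26 beside the decoys rose. Tnfrsf10b, the only mouse TRAIL receptor with a death domain, fell 1.61-fold and measured 35.1, 33.6 and 32.8 CPM in the Fc libraries and 17.2, 23.9 and 21.8 CPM in the DEL-1-Fc libraries (log2 fold change -0.69, SE 0.112, edgeR adjusted p = 0.00459). Replicate 1 was the lowest DEL-1-Fc library, and without it the log2 fold change was -0.57 (adjusted p = 0.000212). Of its 31-base words, 16.3% also occur in other genes. Tnfrsf26, a mouse receptor gene in a cluster with the TRAIL decoy receptor genes Tnfrsf22 and Tnfrsf23, rose 1.78-fold and measured 6.38, 6.15 and 5.54 CPM in the Fc libraries and 11.9, 10.2 and 10.02 CPM in the DEL-1-Fc libraries (log2 fold change 0.83, SE 0.11, edgeR adjusted p = 0.00165). Tnfrsf22 measured 6.99, 9.79 and 6.5 CPM in the Fc libraries and 9.51, 10.3 and 8.15 CPM in the DEL-1-Fc libraries, with overlapping groups (log2 fold change 0.26, 95% interval -0.11 to 0.64, edgeR adjusted p = 0.345). Tnfrsf23 was scarce at 0.634, 0.31 and 0.382 CPM in the Fc libraries and 0.792, 0.885 and 0.894 CPM in the DEL-1-Fc libraries (log2 fold change 0.96, 95% interval 0.33 to 1.59, edgeR adjusted p = 0.0559), and was called higher when Fc replicate 1 was omitted (adjusted p = 0.0245), when DEL-1-Fc replicate 1 was omitted (0.0374) and with no low-count filter (0.0368). Other genes hold 39.3% of the 31-base words of Tnfrsf22 and 34.3% of those of Tnfrsf23, mostly through each other, so reads may be split between them, whereas Tnfrsf26 shares 1.4%.

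Fas, the death receptor for Fasl, measured 40.5, 41.9 and 43.1 CPM in the Fc libraries and 43.1, 36.3 and 40.5 CPM in the DEL-1-Fc libraries and did not differ beyond the spread (log2 fold change -0.07, 95% interval -0.24 to 0.11, edgeR adjusted p = 0.626). Tnfrsf1a, the death domain receptor TNFR1, measured 24.4, 25.5 and 23.2 CPM in the Fc libraries and 27.4, 25.8 and 24.9 CPM in the DEL-1-Fc libraries (log2 fold change 0.09, 95% interval -0.07 to 0.26, edgeR adjusted p = 0.439). Tnfrsf21, which encodes DR6, measured 2.57, 3 and 2.26 CPM in the Fc libraries and 2.62, 3.73 and 3.04 CPM in the DEL-1-Fc libraries (log2 fold change 0.27, 95% interval -0.13 to 0.66, edgeR adjusted p = 0.364). In all 3 genes the groups overlapped. Tnfrsf1b, the TNFR2 receptor that is prominent on Tregs, measured 179, 175 and 175 CPM in the Fc libraries and 165, 165 and 168 CPM in the DEL-1-Fc libraries. Its libraries separated by a small margin that did not pass (log2 fold change -0.09, 95% interval -0.21 to 0.03, edgeR adjusted p = 0.318). Ltbr, the receptor of lymphotoxin and LIGHT, which lymphocytes are known to lack, stayed at 0.264, 0.359 and 0.182 CPM in the Fc libraries and 0.122, 0.159 and 0.186 CPM in the DEL-1-Fc libraries (log2 fold change -0.75, 95% interval -1.63 to 0.13, edgeR adjusted p = 0.256).

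Receptors known mainly from B cells and myeloid cells were also detected. Tnfrsf13c, the BAFF receptor, fell 1.58-fold and measured 5.59, 6.14 and 4.37 CPM in the Fc libraries and 3.9, 3.1 and 3.2 CPM in the DEL-1-Fc libraries (log2 fold change -0.66, SE 0.161, edgeR adjusted p = 0.0281). It failed the test when Fc replicate 1 or 2 was omitted (0.119 and 0.123 as edgeR adjusted p) or DEL-1-Fc replicate 2 or 3 (0.0714 and 0.0977). With the filter of 5 CPM in 3 libraries it was not tested. Tnfrsf13b, which encodes TACI, a receptor of BAFF and APRIL, measured 71.1, 78.8 and 77.1 CPM in the Fc libraries and 84.4, 83.5 and 81.7 CPM in the DEL-1-Fc libraries, and per length it stood at 26.7 ± 1.44 RPKM in Fc against 2.62 ± 0.441 RPKM for Tnfrsf13c. The DEL-1-Fc libraries were all above the Fc libraries without passing (log2 fold change 0.14, 95% interval -0.00 to 0.28, edgeR adjusted p = 0.196). Cd40, the receptor of CD40 ligand on antigen-presenting cells, measured 7.89, 9.33 and 10.1 CPM in the Fc libraries and 8.2, 8.14 and 9.53 CPM in the DEL-1-Fc libraries (log2 fold change -0.08, 95% interval -0.36 to 0.20, edgeR adjusted p = 0.723), and Tnfrsf11a, which encodes RANK, measured 1, 1.94 and 1.58 CPM in the Fc libraries and 0.884, 1.27 and 1.43 CPM in the DEL-1-Fc libraries (log2 fold change -0.32, 95% interval -0.93 to 0.29, edgeR adjusted p = 0.489). Of the 7 listed B cell markers, 0 were called by edgeR. Cd79a measured 1.93 ± 0.268 CPM in Fc against 2.21 ± 0.333 CPM with DEL-1-Fc (SD, n = 3 each). Cd79b measured 0.757 ± 0.181 CPM in Fc against 1.27 ± 0.285 CPM with DEL-1-Fc (log2 fold change 0.73, edgeR adjusted p = 0.0921). All DEL-1-Fc libraries of Cd79b lay above its Fc libraries. The part of B cells in the levels of these receptors was not tested.

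**Figure D4:**
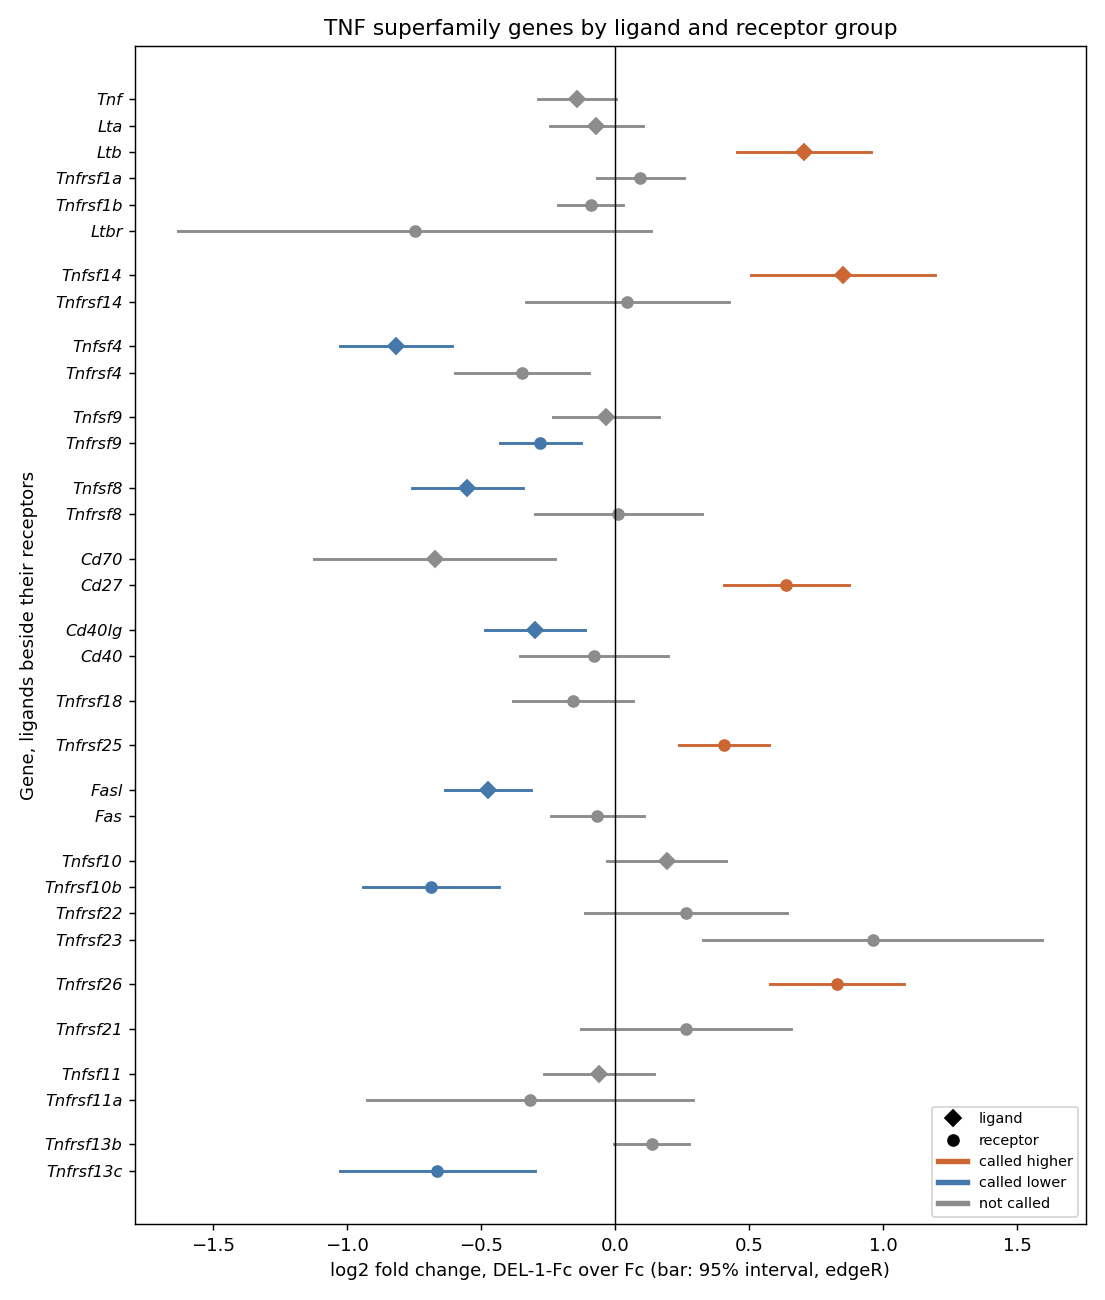
log2 fold change of DEL-1-Fc over Fc with its 95% interval (edgeR, n = 3 a group) for the 32 tested genes, ligands (diamonds) placed beside the receptors they bind (circles); colours mark calls. Ltb, Tnfsf14, Cd27, Tnfrsf25 and Tnfrsf26 lie above 0 and 7 genes are called below 0, with no ligand and receptor of a pair both called.

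Set side by side, no ligand and its own receptor were both called in this fit. Tnfsf4 and Tnfrsf4 were both called lower by DESeq2, with no low-count filter and without DEL-1-Fc replicate 1. That last omission also called Cd70 lower with Cd27 higher, and Tnfsf10 higher with Tnfrsf10b lower. For OX40 the log2 fold changes were -0.82 for the ligand and -0.35 for the receptor, for CD30 -0.55 and 0.01, and for CD137 -0.03 and -0.28. The CD27 pair pointed in opposite directions, at -0.67 for Cd70 and 0.64 for Cd27. Fasl and Fas stood at -0.47 and -0.07, TRAIL and its death receptor Tnfrsf10b at 0.19 and -0.69, and LIGHT and HVEM at 0.85 and 0.05. The differences between ligand and receptor were not tested.

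Several partners of these genes are superfamily members outside the list. Tnfsf15, which encodes the DR3 ligand TL1A, was listed at 0.423, 0.555 and 0.492 CPM in the Fc libraries and 0.305, 0.513 and 0.439 CPM in the DEL-1-Fc libraries (log2 fold change -0.19, 95% interval -0.79 to 0.41, edgeR adjusted p = 0.685). Tnfsf18, the GITR ligand, had 0, 2 and 0 counts in Fc and 0, 1 and 0 counts in DEL-1-Fc, so the ligand of the abundant GITR was not detectable above 3 counts in these cultures. Tnfrsf17, the plasma cell receptor of BAFF and APRIL, had at most 3 counts in any library. The TWEAK receptor Tnfrsf12a (3.21 ± 0.295 CPM in Fc against 3.74 ± 0.508 CPM with DEL-1-Fc; SD, n = 3; edgeR adjusted p = 0.377) and the soluble RANK ligand decoy Tnfrsf11b (0.919 ± 0.0482 CPM in Fc against 0.955 ± 0.234 CPM with DEL-1-Fc; adjusted p = 0.854) did not pass. Of the 11 superfamily genes of this kind, 5 were tested and 0 were called by edgeR or DESeq2, with 1 at an unadjusted edgeR p under 0.05.

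Position in the genome (GRCm38) was looked at because 18 of the 35 genes lie within 100000 bases of another member, in 7 groups. Ltb (chr17:35194439-35196320, plus strand), Tnf (chr17:35199381-35202007, minus strand) and Lta (chr17:35203165-35205351, minus strand) fit within 10913 bases, and Ltb alone was called. On the same chromosome Tnfsf9, Cd70 and Tnfsf14 (chr17:57189492-57194177, minus strand) span 88853 bases, with log2 fold changes of -0.03, -0.67 and 0.85. Cd27 (chr6:125232622-125237010, minus strand) was called and its neighbours Ltbr and Tnfrsf1a were not. The 3 genes of the chromosome 7 cluster, Tnfrsf26 (chr7:143607659-143628722, minus strand), Tnfrsf22 and Tnfrsf23, had log2 fold changes of 0.83, 0.26 and 0.96. In each of the 4 groups that held a call in this fit it was a single gene. Without DEL-1-Fc replicate 1, however, neighbours were called together in 3 groups: Tnfrsf4 and Tnfrsf18, both lower, Cd70 (lower) with Tnfsf14 (higher), and Tnfrsf23 with Tnfrsf26, both higher. Tnfrsf23 and Tnfrsf26 were also both called without Fc replicate 1 and with no low-count filter.

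The TGTGGT letters of Runx factors are shown for 2 called receptors of opposite direction, since the series title names Runx-1. Tnfrsf25, which rose, and Tnfrsf13c, which fell, each hold ACCACA, the same letters read on the other strand, at 92 to 87 and at 100 to 95 bases before a RefSeq start. The first window is chr4:152115684-152115933, plus strand, the other chr15:82224381-82224630, minus strand, and capitals again mark the match.
Tnfrsf25: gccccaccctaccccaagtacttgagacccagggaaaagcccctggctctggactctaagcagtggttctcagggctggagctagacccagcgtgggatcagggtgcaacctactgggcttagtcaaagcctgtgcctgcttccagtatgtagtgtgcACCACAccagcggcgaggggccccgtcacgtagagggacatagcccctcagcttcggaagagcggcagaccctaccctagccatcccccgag
Tnfrsf13c: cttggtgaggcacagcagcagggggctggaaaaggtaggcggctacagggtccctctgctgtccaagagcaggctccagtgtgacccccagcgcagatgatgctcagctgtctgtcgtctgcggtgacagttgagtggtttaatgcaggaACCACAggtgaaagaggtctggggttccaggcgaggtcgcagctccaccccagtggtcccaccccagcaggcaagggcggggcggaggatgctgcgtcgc
Among the 8 called members in the promoter table, 1 of 4 risers and 1 of 4 fallers held these letters, against 14.0% of all entries. A member was counted if any of its windows matched, whereas the 14.0% is a share of single windows. The window at the second RefSeq start of Tnfrsf25 held no match. These matches are descriptions of sequence and not binding sites.

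The intracellular genes of the pathway were taken from lists of adaptors, ubiquitin and kinase steps, death machinery, and shedding and processing. Of 15 TRAF proteins and adaptors, 2 rose and 1 fell, with a median log2 fold change of 0.04. Traf5, an adaptor of OX40, CD27 and HVEM, rose from 18.1, 17.9 and 18.2 CPM in Fc to 27.1, 23.8 and 24.9 CPM in DEL-1-Fc (log2 fold change 0.48, SE 0.0736, edgeR adjusted p = 0.00319). Traf3ip3, a TRAF3-binding protein of lymphocytes, also rose (log2 fold change 0.34, SE 0.0589, edgeR adjusted p = 0.00599), and Traf1, an NF-κB-induced adaptor of CD137 and TNFR2, fell from 261, 265 and 267 to 238, 209.8 and 221 CPM (log2 fold change -0.25, SE 0.0649, edgeR adjusted p = 0.0386). Of 18 genes of the ubiquitin and kinase steps to NF-κB, 0 rose and 3 fell, with a median of -0.08 (edgeR; 1 was higher at an unadjusted p under 0.05, and DESeq2 called 0 higher). The fallers were Tnfaip3, the feedback deubiquitinase A20 (log2 fold change -0.33, SE 0.0608), Rnf31, the catalytic part of the linear ubiquitin ligase (-0.38, SE 0.0761), and Otulin, which removes linear ubiquitin (-0.43, SE 0.109).

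Of 12 tested genes of the death receptor machinery, 4 rose and 1 fell, with a median log2 fold change of 0.06. Mlkl, the executioner of necroptosis, fell 1.76-fold from 21.4, 22.9 and 21.5 CPM in Fc to 13.04, 11.3 and 12.97 CPM in DEL-1-Fc (log2 fold change -0.82, SE 0.0846, edgeR adjusted p = 0.000462). Ripk3, the kinase that activates it, moved the other way, from 35.2, 35.2 and 37.4 to 56.9, 50.9 and 51.8 CPM (log2 fold change 0.56, SE 0.0681, edgeR adjusted p = 0.00101). Neither gene's groups overlapped. Fam129b (0.74, SE 0.0863) and Diablo, which relieves caspases of their inhibitors (0.41, SE 0.0935), were among the risers, though Diablo shares 21.5% of its exon bases with B3gnt4 on the other strand. Casp8 and Cflar, the initiator caspase and its inhibitor, were not called (0.11 and -0.30, edgeR adjusted p = 0.319 and 0.132; named after their values were seen). Of 7 tested genes of shedding and processing, 0 rose and 2 fell (edgeR; 0 were higher at an unadjusted p under 0.05, and DESeq2 called 0 higher). The fallers were Furin, a proprotein convertase (-0.65, SE 0.0724), and Rhbdf1, a partner of the TNF sheddase ADAM17 (-0.62, SE 0.13), whereas Adam17 itself stood at -0.08 (adjusted p = 0.582; named after its values were seen). The shares called were 20% of the adaptors, 16.7% of the ubiquitin and kinase genes, 41.7% of the death machinery and 28.6% of the shedding and processing genes, against 12.6% of all genes kept. These lists too were chosen with earlier results of these data known. Unlike those of the members, the calls in these lists were not followed through the fits with a library left out, so their stability is not known.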

How the data were processed

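PolyA-selected libraries were made by BGI, per the labels' protocols, and the authors deposited raw counts of reads per Ensembl gene, 1 file per library; STAR (no version given), HTSeq 0.6.0 and GRCm38 (mm10) are named per the submitters' processing notes. The annotation release, strand setting and treatment of multi-mapping reads are, as far as the sources used here go, not given, so overlapping genes and genes with copies are uncertain. Of 39179 identifiers, 37693 matched GENCODE M21 (GRCm38), which gave symbols, coordinates and exon lengths. The quasi-likelihood test of edgeR 4.0.16 (R 4.3.3) was run on all 6 libraries with TMM factors and robust dispersions, after filterByExpr with a minimum count of 10 and a minimum total of 15. The common biological coefficient of variation was 14.4%. Positive log2 fold changes mean higher in DEL-1-Fc, their SE is the absolute value over the square root of F, and 95% intervals use the moderated degrees of freedom. CPM uses TMM-scaled library sizes, and RPKM divides it by the union of exons. Words of 31 bases shared with other genes were counted in each member's longest GENCODE M21 transcript. No pair of replicates had a chi-square per degree of freedom below 18.3, so no file repeats another within counting noise. The scripts were tested on simulated data. Members and lists were chosen with earlier results of these data known. The rule for named genes was that all 35 members are accounted for, and that of each other list up to 4 called genes with the smallest p and the partners of members are named. Markers named singly were chosen after their values were seen. Alternatives were DESeq2 1.42.0, RLE factors, library sizes alone, a fit with no filter on low counts, a filter of 5 CPM in 3 libraries, the replicate number as a block, and each library left out in turn. The bound of 3 counts for a count of 0 covers counting error only.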

Additional observations from a re-analysis of the deposited data

How the results depend on the processing

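The 5 members called higher were all called again in every one of the 12 alternatives except Tnfrsf25, which was lost without Fc replicate 1, and of the 7 called lower, Tnfrsf10b, Fasl, Tnfsf4 and Tnfsf8 were called in all 12. The count of all genes called ranged from 901 to 3003 with a library left out (901, 970 and 963 when Fc replicates 1, 2 and 3 were omitted in turn, 3003 when DEL-1-Fc replicate 1 was), against 1884. Members called lower ranged from 4 to 10 and receptors called lower from 1 to 5 in the same omissions, against 7 and 3, with 4 and 1 without Fc replicate 1, Fc replicate 2 or DEL-1-Fc replicate 3. Members called higher ranged from 5 to 7. With DESeq2, RLE factors, library sizes alone, either other filter or the block, each count stayed within 1.5 times its main value, and 5 or 6 members were called higher and 5 to 8 lower. The labels do not say whether same-numbered libraries belong together. Deviations of same-numbered libraries correlated at 0.0163 to 0.0885, and 5 of 6 libraries correlated best with their own number. These values do not settle whether the libraries are weakly paired. With the replicate block 1510 genes were called, with 5 members higher and 6 lower, and Cd40lg lost its call. Sign changed only for genes that were not called in any fit, and with a library left out the log2 fold change ranged from -0.0747 to 0.131 for Tnfrsf8, from -0.0803 to 0.216 for Tnfrsf14, from -0.0742 to 0.0238 for Tnfsf9, from -0.173 to 0.00231 for Cd40 and from -0.138 to 0.0141 for Tnfsf11. The stricter filter of 5 CPM in 3 libraries left no value for 7 of the low members, among them Tnfrsf13c, which was called lower in the main fit. Depth limits Ltbr, Tnfrsf23, Cd70 and Tnfrsf11a most, and the 3 untested ligands altogether.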
